A study of Mus musculus with 4 samples.

Results

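Snai1 (Snail) and Snai2 (Slug) were measured on oligonucleotide membrane arrays of 4 cultures of muscle-derived stem cells (MDSCs). MDSCs are cells of skeletal muscle that attach late when dissociated muscle is replated in series. Both genes were taken by symbol, and each had 1 spot on the array, so they made up 2 of its 268 genes and 2 of its 274 gene spots. The pair was chosen with its intensities on these arrays already known, so its levels are given as a description and no test was run on them. The array was made for stem cell genes, and RNA pooled from 3 flasks of each MDSC type was hybridized to 1 array. All 4 MDSC types came from hind limb muscle of male mice listed under the strain C57BL/6J and were grown nearly to confluence in DMEM with 20% fetal bovine serum. The WT MDSCs carried no mutation. The Mst KO MDSCs came from Mst-/- mice, which lack myostatin, a secreted inhibitor of muscle growth, and whose line was moved to this strain from Balb/c. The mdx MDSCs carried 10ScSn-Dmdmdx, the dystrophin mutation of the mdx model of Duchenne muscular dystrophy. Its name points to the strain 10ScSn, so a strain difference and the mutation cannot be told apart in that comparison. The Oct4 transgenic MDSCs came from mice with the OCT4 promoter joined to a reporter, a line that the paper does not describe. The WT and Mst KO mice were 12 to 16 weeks old, and the ages of the other mice are not given in the sources used here. The paper states for the WT and Mst KO cells that they were selected for the surface protein Sca1 and kept for many passages, and each array describes 1 cultured line rather than muscle.

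Snail family proteins are zinc finger repressors. They bind the E-box CACCTG and its reverse complement CAGGTG and bring histone deacetylases and other corepressors to the genes they bind, E-cadherin (Cdh1) being the best known. They act in gastrulation, in the neural crest and in other settings in which epithelial cells become mesenchymal (EMT), and in mouse myoblasts Snai1 holds the myogenic factor MyoD away from genes of differentiation.

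The promoter of Snai1 is shown with the family's own binding word marked in it. In the table of RefSeq promoters used here, on GRCm38.p6, 1 of the 3 Snail family genes of the array was matched, Snai1, and Snai2 and Snai3 were not searched. The 250 bases before the Snai1 start are at chr2:167537945-167538194 on the plus strand. Capitals mark the E-box CACCTG, searched on both strands as CACCTG or CAGGTG.
Snai1: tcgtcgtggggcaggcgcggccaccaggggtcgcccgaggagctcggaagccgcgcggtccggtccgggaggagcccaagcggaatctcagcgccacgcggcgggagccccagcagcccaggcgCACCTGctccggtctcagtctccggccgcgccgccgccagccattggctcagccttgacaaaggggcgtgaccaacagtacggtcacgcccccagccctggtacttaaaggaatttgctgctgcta
The word occurred 1 time, starting at base -126 from the gene start. The same 2 words were found in 5657 of 32851 RefSeq windows of this length (17.2%) and in 49 of the 241 windows that belong to 185 genes of the array (20.3%). The match is a description of the letters in this window, and the arrays measured no binding.

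All 3 Snail family genes of the array lay side by side on the membrane, and 2 of them were detected. The authors' software called each spot present or absent with a threshold given as 1.5 in the file header. Snai1 and Snai2 were called present on all 4 arrays, and Snai3, their close relative, was called absent on all 4. Normalized intensities of Snai3 were 0.339 in WT, 0.299 in Mst KO, 0.492 in mdx and 0.337 in Oct4 transgenic MDSCs. The lowest value called present was 0.697, 0.753, 0.898 and 0.828 on the same arrays, and the raw Snai3 spot was dimmer than its local background on each of them.

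Snai1 had 1 array that stood apart. Its normalized intensity, as deposited, was 3.71 in WT MDSCs, 3.70 in Mst KO MDSCs, 4.81 in mdx MDSCs and 15.8 in Oct4 transgenic MDSCs. Thus the WT and Mst KO arrays were at the same level, the mdx array was slightly above them and the Oct4 transgenic array was far above all 3. The raw spot gave the same picture, at 1563, 1533, 1665 and 4888 units against a local background of 398, 445, 438 and 751 units. Even on its dimmest array Snai1 was 4.91 times the lowest value called present, and on the Oct4 transgenic array it was 19.0 times that value.

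Snai2 had a different order. Its normalized intensity was 18.4 in WT MDSCs, 30.3 in Mst KO MDSCs, 30.4 in mdx MDSCs and 31.7 in Oct4 transgenic MDSCs. Here the WT array was the low one, and the 3 others lay within 0.06 of each other on the log2 scale. Raw intensities were 7005, 11195, 9583 and 9616 units over local backgrounds of 1069, 1343, 1261 and 1353 units, and Snai2 was 26.4 to 40.2 times the lowest value called present. Levels of Snai1 and Snai2 are not set against each other, since they come from different probes.

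**Figure D1:**
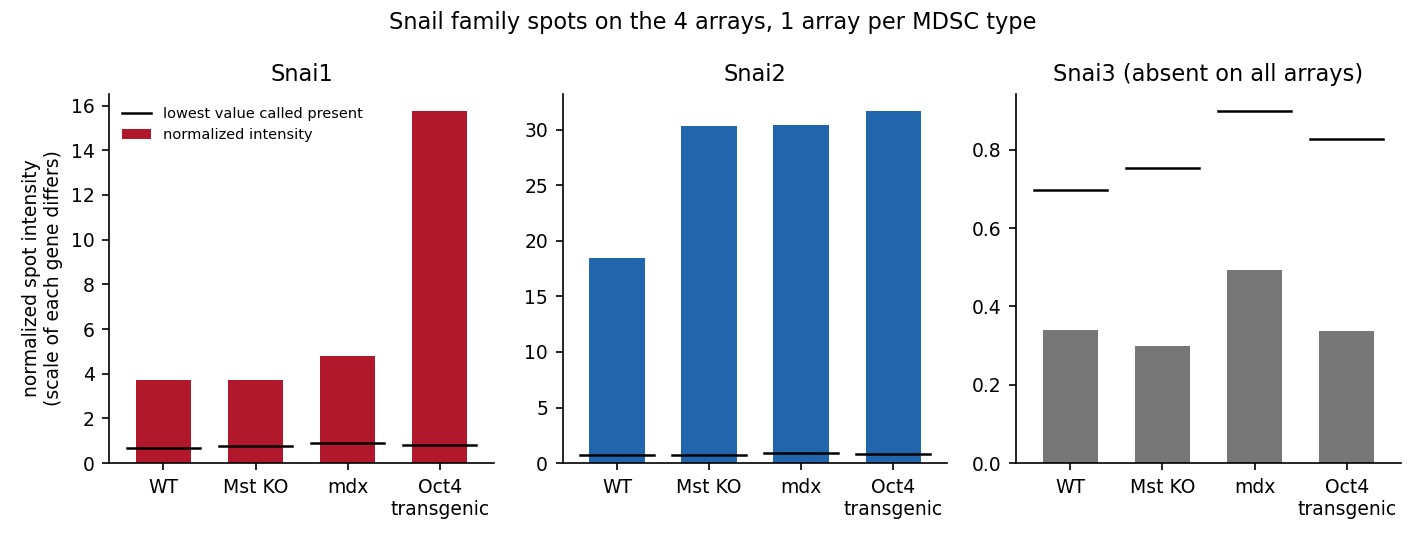
Normalized spot intensity (no unit) of Snai1, Snai2 and Snai3 on the 4 arrays, with 1 bar per array and its own vertical scale for each gene. Black lines mark the lowest value called present on each array. Snai1 stands at 15.8 on the Oct4 transgenic array against 3.70 to 4.81 elsewhere, Snai2 is lowest on the WT array at 18.4, and all Snai3 bars lie under the lines.

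With 1 array per MDSC type no spread between cultures could be had. The only measured error was that between spots of one gene on one membrane, a mean log2 SD of 0.05 over Gapdh, Ppia and B2m, which had 3 spots each and were bright. The difference of Snai1 between the WT and Mst KO arrays and that of Snai2 between the Mst KO and mdx arrays were both 0.00 on the log2 scale, which is within this spread. Snai2 on the Oct4 transgenic array was 0.06 above the Mst KO and mdx arrays, close to it. This spread does not cover differences between arrays, which also depend on the scaling. With 5 housekeeping genes as the reference, Snai1 was 0.34 higher on the log2 scale in Mst KO than in WT MDSCs. Snai2 then lay at -0.27 in Mst KO and -0.66 in mdx MDSCs on that scale. A higher level in RNA of a whole culture can come from more cells that express the gene or from more RNA per cell, and these cannot be told apart here.

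Against the WT array, 1 of the 6 ratios of the pair passed 2-fold, that of Snai1 in Oct4 transgenic MDSCs. In this comparison 21.5% of the 144 genes present on either array were 2-fold or more apart, 13.2% being higher and 8.33% lower. Snai1 was 4.25-fold higher in Oct4 transgenic MDSCs, a log2 ratio of 2.09 against a median of -0.01 over all genes compared, and 3 genes had a larger ratio. These were Pparg, Cxcl12 and Ccnd2, of which Cxcl12 and Ccnd2 were named after their values were seen. Snai2 was 1.72-fold higher there, a log2 ratio of 0.78, and ranked 20 of 144. The split by direction depended on the scaling. As deposited, 19 genes were higher and 12 lower, which became 12 and 21 with Gapdh as the reference and 11 and 24 with 5 housekeeping genes.

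In Mst KO MDSCs neither gene passed 2-fold, as deposited, against 16.7% of the 144 genes compared with WT, 6.94% being higher and 9.72% lower. Snai1 had a log2 ratio of -0.00, rank 64 of 144. Its sign changed with the processing and was above 0 under 5 of 8 other ways of treating the arrays. Among those 8, the rounded series table and a floor for absent values could not move either gene beyond rounding. Snai2 was 1.65-fold higher, a log2 ratio of 0.72, rank 17 of 144. This was the 1 ratio of Snai2 that crossed 2-fold when the arrays were processed in other ways, in 3 of 8, reaching 1.07 on the log2 scale with quantile normalization. Of the genes past 2-fold as deposited, 10 were higher and 14 lower, which became 14 and 9 with Gapdh as the reference and 18 and 9 with the 5 housekeeping genes.

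In mdx MDSCs the pair likewise stayed within 2-fold, against 21.7% of the 143 genes compared with WT that did not, 8.39% being higher and 13.3% lower. Snai1 was 1.30-fold higher, a log2 ratio of 0.37, and Snai2 was 1.65-fold higher, a log2 ratio of 0.72. They ranked 28 and 19 of 143. All 3 comparisons share the WT array, so the low Snai2 value there enters each of them. The 12 genes higher and 19 lower as deposited were 18 and 13 with Gapdh as the reference.

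**Figure D2:**
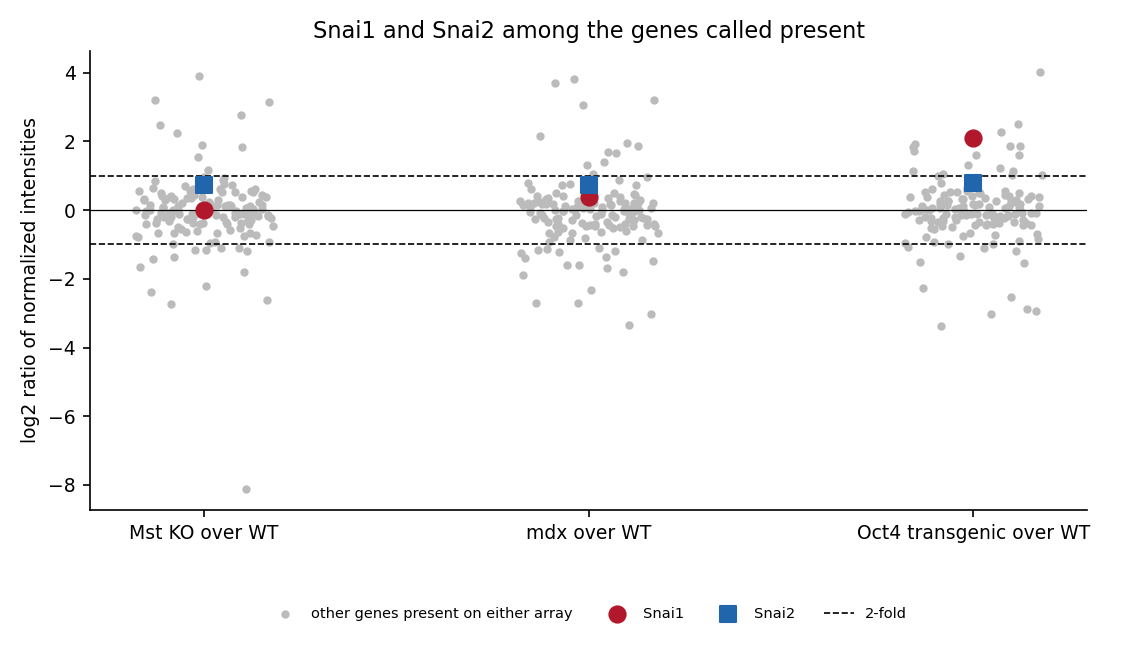
Log2 ratio of normalized intensity to the WT array for each gene present on either array of the pair, in 3 columns for Mst KO, mdx and Oct4 transgenic MDSCs (sideways scatter has no meaning). Dashed lines mark 2-fold. The Snai1 point lies at 2.09 in the Oct4 transgenic column and at -0.00 and 0.37 in the others, and the Snai2 point lies at 0.72, 0.72 and 0.78.

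Comparisons that leave out the WT array kept Snai1 apart on the Oct4 transgenic array and showed no such gap for Snai2. Snai1 was 4.26-fold higher in Oct4 transgenic than in Mst KO MDSCs, where 17.6% of 142 genes were 2-fold or more apart, and ranked 6. It was 3.28-fold higher than in mdx MDSCs, where 19% of 137 genes were 2-fold or more apart, and again ranked 6. The log2 ratio of Snai2 was 0.06 in both of these comparisons. Between mdx and Mst KO MDSCs, where 6.43% of 140 genes were 2-fold or more apart, the log2 ratio was 0.38 for Snai1 and 0.00 for Snai2.

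In a quotient of Snai1 to Snai2 on one membrane, any single scaling factor of that membrane cancels. Relative to its value on the WT array, this quotient was 1.65-fold lower in Mst KO MDSCs, 1.27-fold lower in mdx MDSCs and 2.47-fold higher in Oct4 transgenic MDSCs. The balance of the pair thus lay toward Snai2 in the Mst KO and mdx lines and toward Snai1 in the Oct4 transgenic line, each compared with WT. It still depends on the background subtracted from each spot and changes with quantile normalization, which applies no single factor.

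The deposited values are scaled to the middle of each array's own spots and not to housekeeping genes, so the ratios were set beside other scalings. Under all 8 alternatives Snai1 was highest on the Oct4 transgenic array and Snai2 lowest on the WT array. Among them, the rounded series table holds the same values rounded, and the floor for absent values cannot move genes present on every array. Neither adds support of its own to counts out of 8. The log2 ratio of Snai1 in Oct4 transgenic MDSCs ranged from 1.497 to 2.17 and was past 2-fold in 8 of 8. For Snai2 the range was 0.72 to 1.07 in Mst KO, 0.66 to 0.99 in mdx and 0.31 to 0.87 in Oct4 transgenic MDSCs. The 3 arrays on which Snai2 was high lost their closeness with 5 housekeeping genes as the reference, where they spanned 0.74. They spanned 0.73 when background correction was also left out, 0.52 with Gapdh and 0.28 with quantile normalization. Their order was not stable across these settings. For Snai1, the mdx array fell just below the Mst KO array with 5 housekeeping genes, with or without background correction. The housekeeping genes differed among themselves on the Oct4 transgenic array, with log2 ratios to WT of 0.31 for Gapdh, 0.11 for Ppia, 0.51 for Hsp90ab1, 0.27 for Rps27a and 1.13 for B2m.

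**Figure D3:**
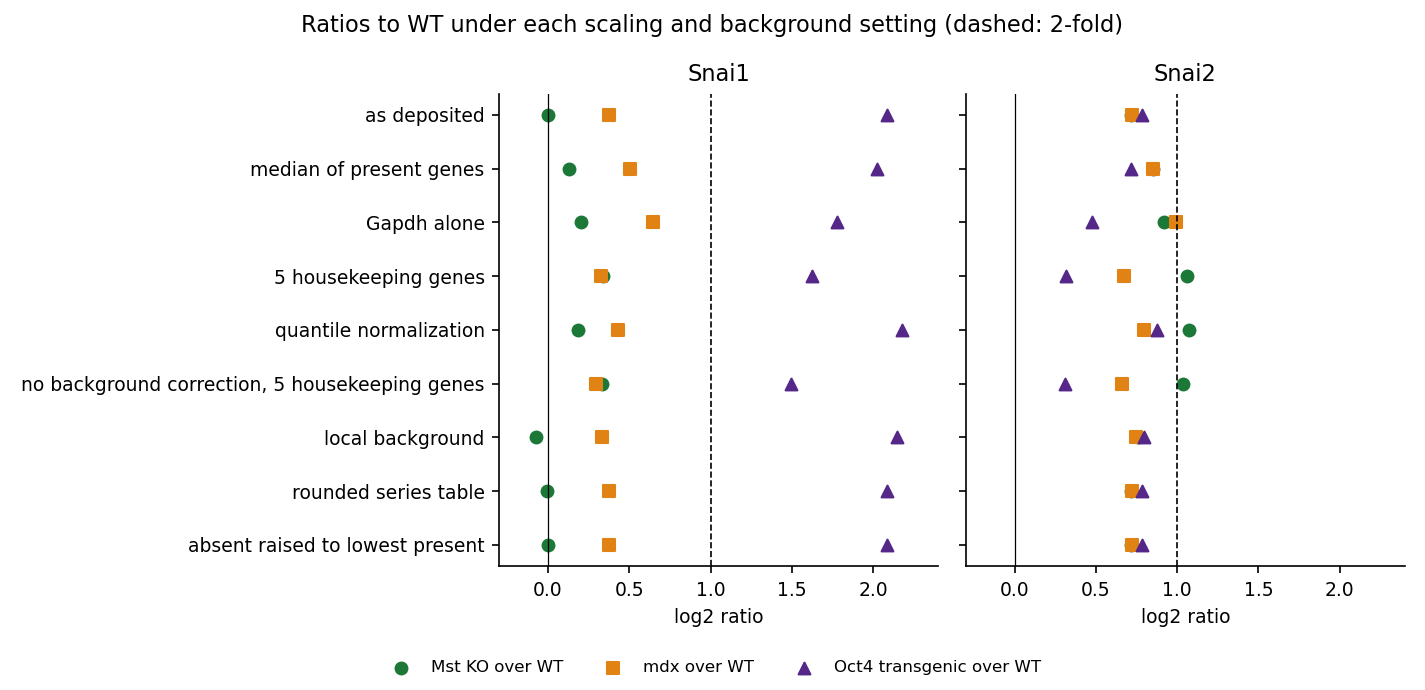
Log2 ratios to the WT array of Snai1 (left) and Snai2 (right) under the deposited values and 8 alternatives, with 1 row per way of processing and 1 marker per MDSC type. The Snai1 markers of Oct4 transgenic MDSCs all lie past the 2-fold line, between 1.497 and 2.17, and those of Snai2 in Mst KO MDSCs cross it in 3 rows.

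On the membrane Snai1 lay between Smad4 and Snai2 in row 21 of 24. Smad4 was called absent on all 4 arrays, at 0.204 on the Oct4 transgenic array. Rb1, above Snai1, was 2.44, 1.55, 1.32 and 2.21 on the WT, Mst KO, mdx and Oct4 transgenic arrays, and Tert, below it, was 0.956, 0.984, 0.701 and 0.724, the last 2 called absent. The authors' software marked no spot as bleeding on any array. These neighbors were chosen by position after the values were known.

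The genes that surround the Snail family in textbook pathways were read from lists that leave out the pair. The first list held 23 EMT factors and adhesion genes, of which 10 were on the array and 6 were present on at least 1 array. These 10 were cadherins, the cadherin anchors Ctnna1 and Ctnnb1, and the collagen gene Col1a1. The EMT factors of the list, such as Twist1 and Zeb1, were not on the array, so the counts describe adhesion genes and Col1a1. E-cadherin itself, the main gene repressed by the family, was called absent on all 4 arrays, at 0.150 to 0.828, as were the cadherins Cdh3, Cdh4 and Cdh5. There was therefore no measured E-cadherin level against which to set Snai1. Of the 6 present genes, 2 were 2-fold or more higher and 2 lower in Mst KO MDSCs, 3 higher and 1 lower in mdx MDSCs, and 2 higher and none lower in Oct4 transgenic MDSCs. Of all genes, 6.94% were higher and 9.72% lower in Mst KO, 8.39% and 13.3% in mdx, and 13.2% and 8.33% in Oct4 transgenic MDSCs, and the counts of the lists are to be read against these shares. The median log2 ratios of the 6 present genes were 0.33, 0.86 and 0.31, against -0.04, -0.03 and -0.01 over all genes.

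N-cadherin (Cdh2), the cadherin that mesenchymal and muscle precursor cells carry in place of E-cadherin, was 6.55 in WT, 3.05 in Mst KO, 2.55 in mdx and 13.3 in Oct4 transgenic MDSCs. It was thus highest on the array with the highest Snai1 and lowest on the mdx array. Its log2 ratios to WT were -1.10, -1.36 and 1.02, and under the alternatives they ranged from -1.14 to -0.65, from -1.48 to -1.09 and from 0.52 to 1.03. Cadherin-11 (Cdh11), which marks mesenchymal cells, was 7.39, 65.6, 68.7 and 22.3, lowest on the WT array as Snai2 was, with log2 ratios of 3.15, 3.22 and 1.59. Cdh6 was 2.52, 9.02, 9.83 and 2.69, so it was higher in Mst KO and mdx MDSCs but not in Oct4 transgenic MDSCs. The type I collagen gene Col1a1, as deposited, passed 2-fold only in mdx MDSCs, with a log2 ratio of 1.70, and its ratio of 0.77 in Mst KO MDSCs ranged up to 1.11 under the alternatives. As deposited, the cadherin anchor Ctnna1 passed 2-fold only in Mst KO MDSCs, at -1.15 (-1.23 to -0.79 under the alternatives).

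Corepressors and regulators of Snail protein formed the second list, with 8 genes on the array and 7 present. None of the 7 was 2-fold or more higher in a comparison with WT, where the share of all genes was 6.94%, 8.39% and 13.2%. Those 2-fold or more lower were Frat1 and Cdkn1a in Mst KO MDSCs, Cdkn1a in mdx MDSCs and Hdac1 in Oct4 transgenic MDSCs, against 9.72%, 13.3% and 8.33% of all genes. Frat1 was absent in Mst KO MDSCs and is counted by its deposited value. The median log2 ratios were -0.19, -0.30 and 0.10. The histone deacetylase Hdac1, which the Snail family recruits to its targets, was 6.10 in WT, 4.63 in Mst KO, 3.34 in mdx and 0.828 in Oct4 transgenic MDSCs. It was present on all arrays but was the dimmest gene called present on the Oct4 transgenic array, the one on which Snai1 was highest. Its ratio to WT there was 7.37-fold lower, a log2 ratio of -2.88 that ranged from -3.35 to -2.58 under the alternatives. Hdac2, its close paralog, was 7.48, 6.57, 8.36 and 8.95 and stayed within 2-fold.

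Gsk3b, the kinase that marks Snai1 protein for breakdown, was 2.28, 2.52, 1.85 and 2.44 on the 4 arrays in the same order. Trp53, which codes for p53, was 2.56, 2.51, 2.90 and 2.86. Neither passed 2-fold in any comparison with WT. Btrc, a part of the ubiquitin ligase that takes up the Snai1 protein marked by Gsk3b, was called absent on all 4 arrays. Frat1, an inhibitor of Gsk3b, was 1.33 in WT MDSCs and called absent in the others. In the deposited values, the lowest value called present was put in place of each absent one. Frat1 was then 1.77-fold lower in Mst KO, 1.48-fold lower in mdx and 1.61-fold lower in Oct4 transgenic MDSCs. These folds are not firm limits, since a gene could be called absent above the lowest present value. Acan was called absent on all 4 arrays, at 1.14, 0.847, 1.02 and 1.82, above that value on each. The cell cycle inhibitor gene Cdkn1a had log2 ratios of -1.64 in Mst KO and -1.40 in mdx MDSCs and of -0.10 in Oct4 transgenic MDSCs.

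Signals that induce Snail genes in other settings made up the third list, of which 22 genes were on the array and 13 were present. In Mst KO MDSCs 3 were 2-fold or more higher, 1 was lower and 9 of 13 were within 2-fold. Those higher were Bmp4, Pdgfra and Bmp2, the last counted by its deposited value although absent on the WT array. In mdx MDSCs these counts were 1, 2 and 9 of 12, and in Oct4 transgenic MDSCs 2, 3 and 7 of 12. Of all genes, 6.94% were higher and 9.72% lower in Mst KO, 8.39% and 13.3% in mdx, and 13.2% and 8.33% in Oct4 transgenic MDSCs. The median log2 ratios of the list were 0.20, 0.03 and -0.13, against -0.04, -0.03 and -0.01 over all genes. The ligand Bmp4 was present in WT MDSCs at 0.843 and in Mst KO MDSCs at 2.43, a log2 ratio of 1.53, and was called absent in mdx and Oct4 transgenic MDSCs. It counts as lower in Oct4 transgenic MDSCs from its deposited value of 0.176, although its WT level was itself close to the lowest value called present. Bmp2 was called present only in Mst KO MDSCs, at 0.780, just over the lowest present value there. With the lowest present value in place of the absent WT one, its fold against WT was 1.12, which is not a firm limit.

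Of the 3 Notch receptors present, whose cleaved form switches on target genes, Notch1 and Notch3 were brightest on the WT array and Notch2 was not, at 2.26, 2.59, 2.35 and 2.13. Notch1 was 2.65, 1.16, 0.824 and 0.912, and Notch3 was 2.55, 1.30, 0.840 and 1.12, with both mdx values called absent. Their log2 ratios to WT in Oct4 transgenic MDSCs were -1.54 and -1.18. The paper reports Notch1 and Notch3 as not reduced in Mst KO MDSCs and Notch2 as lower there, which differs from the deposited values given here. The Notch ligand Jag1 was 5.10, 5.31, 5.79 and 6.70 and stayed within 2-fold. The PDGF receptor gene Pdgfra, a marker of mesenchymal cells, was 2.90, 19.7, 37.5 and 9.56, lowest on the WT array as Snai2 was. The ligand Pdgfa had a log2 ratio of 1.004 in Oct4 transgenic MDSCs, where it just reached 2-fold (0.51 to 1.05 under the alternatives), and of -0.16 and 0.02 in the others.

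The fourth list was skeletal myogenesis, with 10 genes on the array and 8 present. In each of the 3 comparisons with WT 4 of the 8 were 2-fold or more lower, against 9.72%, 13.3% and 8.33% of all genes, and none was higher, with median log2 ratios of -1.04, -1.58 and -1.72. These 4 were Myod1, Actc1, Cdh15 and Spp1. Myod1, which codes for the myogenic factor MyoD, was 17.5 in WT, 2.65 in Mst KO, 2.68 in mdx and 1.68 in Oct4 transgenic MDSCs. Thus Myod1 was highest on the array on which Snai2 was lowest and was at a similar low level on the others, while Snai1 separated only 1 of those 3. Cardiac actin (Actc1) was 39.9, 6.52, 4.87 and 5.23, M-cadherin (Cdh15) was 8.67, 1.66, 1.34 and 1.06, and osteopontin (Spp1) was 70.7, 20.3, 6.98 and 12.2.

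Markers of muscle and mesenchymal cells also differed between the arrays. The 5 myogenic markers Myod1, Myf5, Des, Cdh15 and Actc1 were present on all 4 arrays and summed to 76.7 in WT, 20.0 in Mst KO, 16.6 in mdx and 16.5 in Oct4 transgenic MDSCs. The 4 mesenchymal markers Pdgfra, Col1a1, Cdh11 and Cd44 were also all present and summed to 44.1, 142, 212 and 65.3. These sums are carried by their brightest spots, and Myf5 and Des stayed within 2-fold of WT, while Cd44 had a log2 ratio of -0.47 in mdx and Col1a1 one of -0.10 in Oct4 transgenic MDSCs. The WT array thus had the lowest mesenchymal sum, the highest myogenic sum and the lowest Snai2. The part of a different cell makeup in the Snai2 and Snai1 values was not tested. The epithelial marker Cdh1, the endothelial markers Cdh5 and Kdr and the blood cell markers Ptprc and Cd4 were called absent on all 4 arrays. The T cell markers Cd8a, at 2.86, 2.85, 1.82 and 1.67, and Cd3e, at 1.31, 1.87, 1.70 and 1.49, were called present on all 4. Of other T cell genes on the array, Ptcra was also present on all 4, while Cd3d, Cd3g, Cd247 and Cd8b1 were absent on all 4. The presence of T cells is therefore not read from these spots.

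**Figure D4:**
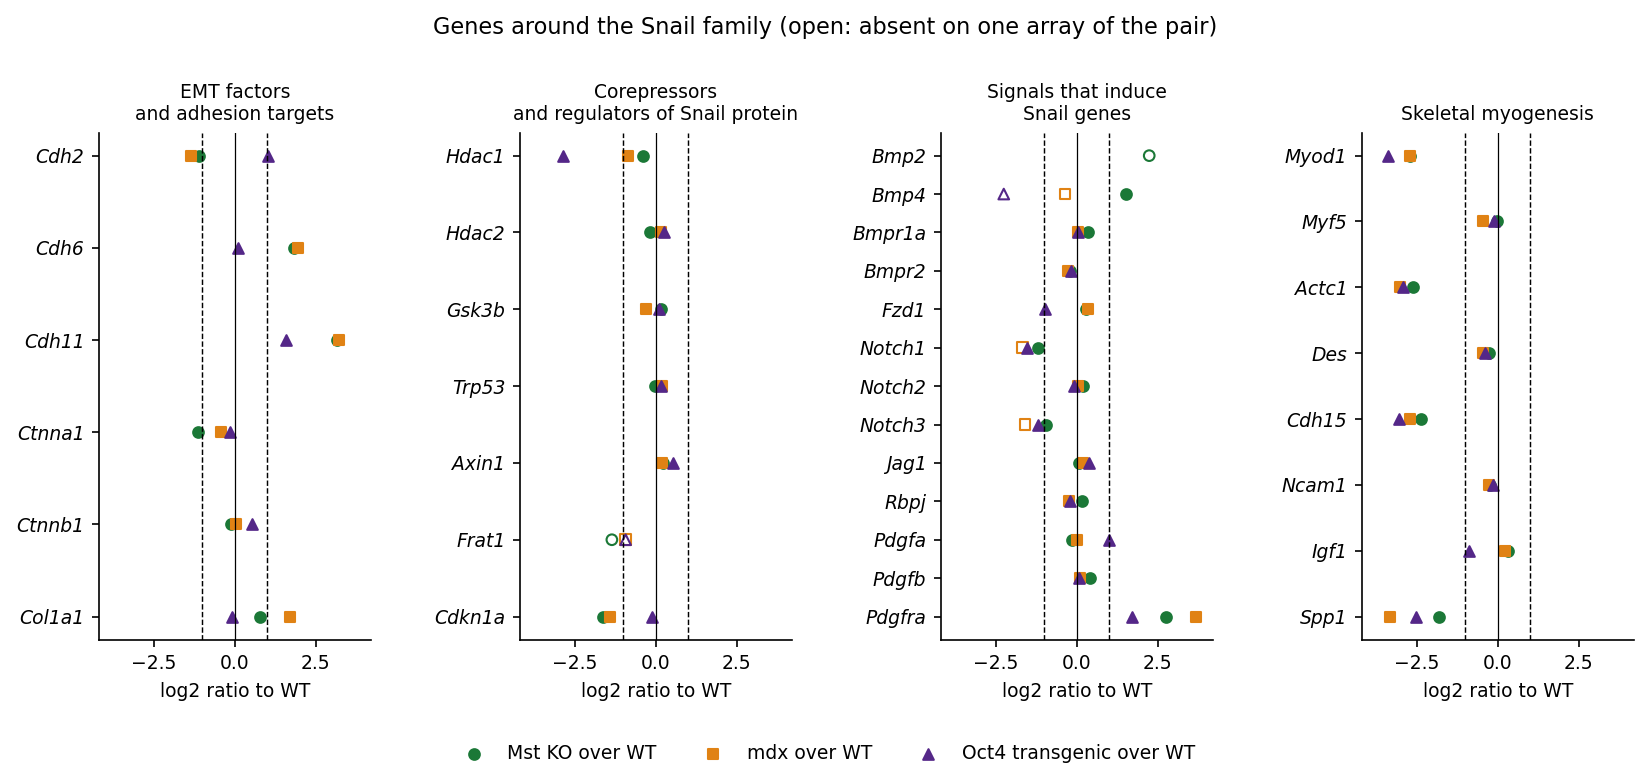
Log2 ratios to the WT array of the present genes of 4 lists around the Snail family, with 1 marker shape per MDSC type and open markers where the gene was absent on one array of the pair. Dashed lines mark 2-fold. Hdac1 lies at -2.88 in Oct4 transgenic MDSCs, Cdh11 and Pdgfra lie to the right in all 3 comparisons, and Myod1, Actc1, Cdh15 and Spp1 lie to the left in all 3.

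Of the 2 neural crest genes on the array, Foxd3 and Msx1, neither was called present on any array. The 7 other genes whose name on the array holds zinc finger, snail or homeo box, Hoxb4, Pdx1, Msx1, Nanog, Prox1, Snai3 and Zfp42, were also absent on all 4 arrays.

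To find the genes with the most similar pattern, the log2 values of each gene were centered over the 4 arrays, and genes were ranked by the root mean square difference from each member. In this ranking 148 genes present on at least 1 array took part, and a value below the lowest one called present on its array was raised to it. With 4 arrays this is a description. Nearest to Snai1 was Fgfr4, a fibroblast growth factor receptor, at a difference of 0.108, with intensities of 1.15, 1.08, 1.54 and 4.14 and a log2 ratio of 1.85 in Oct4 transgenic MDSCs. Pparg, a nuclear receptor needed for making fat cells, followed at 0.255, with 1.13, 1.75, 1.49 and 5.43. Then came Aldh1a1, an aldehyde dehydrogenase that makes retinoic acid, called present only on the Oct4 transgenic array at 1.98, the class I light chain B2m and the growth factor Pdgfa, at 0.271, 0.358 and 0.415. All 5 were highest on the Oct4 transgenic array. For Aldh1a1, the lowest present value stood in wherever it was called absent, and its nearness to Snai1 comes in part from this. Its deposited values gave log2 ratios to WT of -0.71 (Mst KO) and -1.05 (mdx), against -0.00 and 0.37 for Snai1.

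Nearest to Snai2 were Thy1, a surface protein of fibroblasts and T cells, Neurog2, a proneural factor, Cdkn2a, the cell cycle inhibitor locus, Axin1, a Wnt pathway scaffold, and Myst4, a histone acetyltransferase, at 0.153 to 0.210. Of these only Cdkn2a and Axin1 were present on all 4 arrays. Cdkn2a was 0.886 in WT, 2.01 in Mst KO, 1.84 in mdx and 2.19 in Oct4 transgenic MDSCs, so its WT array was the low one by log2 ratios of 1.18, 1.05 and 1.31. Axin1 was 1.07, 1.26, 1.22 and 1.53. Thy1, Neurog2 and Myst4 were called absent on 2 or 3 arrays each, where the lowest present value stands in for them. That value was itself lowest on the WT array, at 0.697 against 0.753, 0.898 and 0.828. It therefore gives genes absent there a low WT point by construction, and their nearness to Snai2 comes in part from it. As deposited, Neurog2 and Myst4 had log2 ratios to WT of only 0.02 and 0.03 in Oct4 transgenic MDSCs. Snai2 itself was only 38th among the genes nearest to Snai1, at a difference of 0.763, and Snai1 was 131st among those nearest to Snai2.

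**Figure D5:**
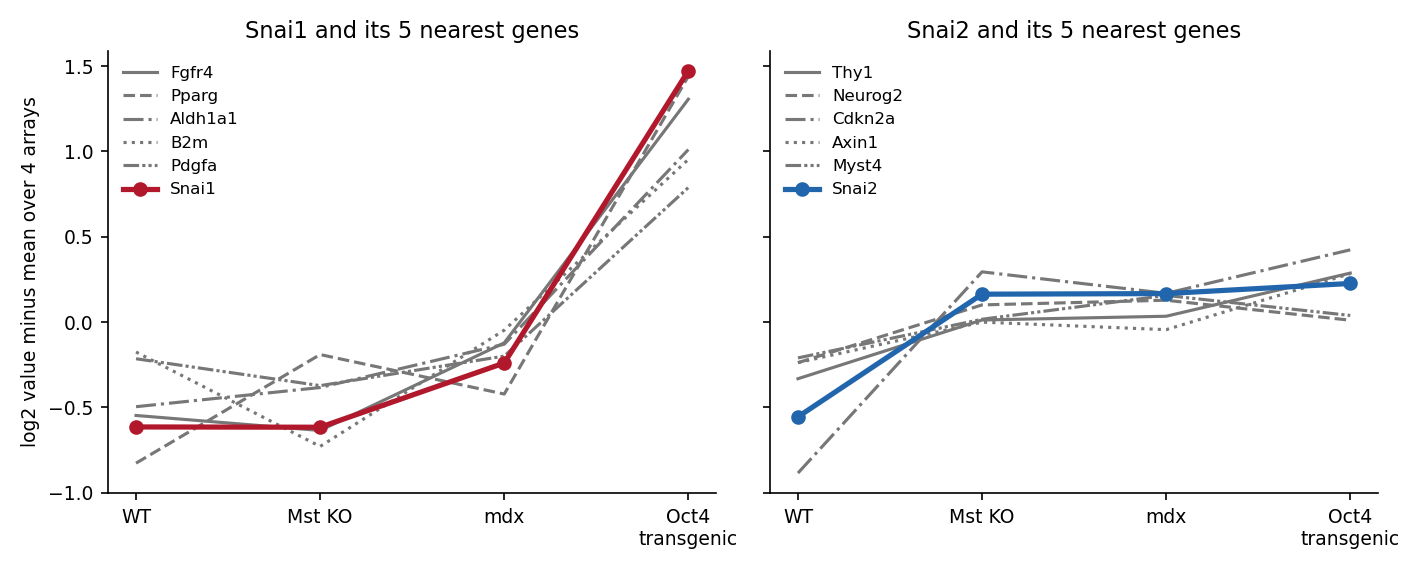
Log2 values minus their mean over the 4 arrays for Snai1 (left) and Snai2 (right), in color, and for the 5 genes nearest to each, in gray. Lines only join the 4 arrays, which have no order. Snai1 and its nearest genes have their highest point on the Oct4 transgenic array, and Snai2 has its lowest on the WT array.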

How the data were processed

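RNA of 4 MDSC types was measured, with 1 array for each and no replicate array. The values are spot intensities as deposited by the authors, raw and normalized, with absent or present calls. The paper states background correction and scaling to housekeeping genes. On all 4 arrays the deposited normalized intensity was found to be the spot less the dimmest spot, over the average of the 144 middle spots after that subtraction. Scaling factors were 297 to 370 raw units, and 126 to 136 of 268 genes were called present.

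Log2 ratios were computed where either array of a pair had a present call, and 2-fold or more was counted. There is no test and no p value, since 1 array per type leaves no replicate error, and the number of arrays limits the precision. Scripts used Python 3.11.15, numpy 2.4.6, pandas 2.3.3 and matplotlib 3.10.9, and were tested on simulated data.

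The members and lists were chosen with earlier results of these data known. The rule for named genes took Snai1, Snai2, list members past 2-fold, a short list of set genes, the 5 genes nearest in pattern to each member and 5 housekeeping genes. Cdh3, Cdh4, Cdh5, Hdac2, Btrc and other absent or within-2-fold genes were named after their values were seen. Accessions of 257 of 268 genes were matched to RefSeq. Alternatives were 8 for the ratios and 6 for the counts. Those for the ratios began with scaling to the median of genes present on all arrays, to Gapdh or to 5 housekeeping genes. Next were quantile normalization, and no background correction together with scaling to the 5 housekeeping genes. The last were local background, the rounded series table and a floor for absent values.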

Additional observations from a re-analysis of the deposited data

How the results depend on the processing

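Values are log2 ratios to WT for Mst KO, mdx and Oct4 transgenic MDSCs in this order. Scaling to the median of genes present on all arrays gave 0.13, 0.50 and 2.02 for Snai1 and 0.85, 0.85 and 0.72 for Snai2. Scaling to Gapdh gave 0.20, 0.65 and 1.78 for Snai1 and 0.92, 0.99 and 0.47 for Snai2. Scaling to 5 housekeeping genes gave 0.34, 0.32 and 1.62 for Snai1 and 1.06, 0.67 and 0.32 for Snai2. Quantile normalization gave 0.19, 0.43 and 2.17 for Snai1 and 1.07, 0.80 and 0.87 for Snai2. Scaling to 5 housekeeping genes without background correction gave 0.33, 0.30 and 1.497 for Snai1 and 1.04, 0.66 and 0.31 for Snai2. Leaving out background correction was not tried under the deposited scaling. With local background Snai1 gave -0.072 in Mst KO and 2.14 in Oct4 transgenic MDSCs. The gap of Snai1 on the Oct4 transgenic array to the next array was 1.71 as deposited. It was 1.52 with the median, 1.13 with Gapdh, 1.28 with 5 housekeeping genes and 1.81 with local background. With 5 housekeeping genes and no background correction it was 1.16. The gap of Snai2 on the WT array to the next was 0.72 as deposited. It was 0.47 with Gapdh, 0.32 with 5 housekeeping genes and 0.80 with quantile normalization. With 5 housekeeping genes and no background correction it was 0.31.

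The median of all genes moved as well. For Mst KO, mdx and Oct4 transgenic MDSCs it moved by 0.20, 0.27 and -0.31 with Gapdh. With 5 housekeeping genes it moved by 0.34, -0.05 and -0.46. With 5 housekeeping genes and no background correction it moved by 0.35, -0.02 and -0.38. It moved by 0.13 in both Mst KO and mdx MDSCs with the median scaling, and by -0.12 in mdx MDSCs with local background.

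Genes 2-fold or more apart from WT were 24, 31 and 31 as deposited. They were 50, 50 and 48 at 1.5-fold, 15, 19 and 17 at 3-fold, and 68, 87 and 76 with no filter on absent genes. With genes present on both arrays the counts were 15 for Mst KO and 17 for mdx. Of the 6 ratios of Snai1 and Snai2, 1 was past the fold as deposited, 4 at 1.5-fold and 2 with 5 housekeeping genes. With Pearson correlation in place of the root mean square difference, 3 of the 5 genes nearest to Snai1 were shared, and 4 of 5 for Snai2. The cause of these changes was not tested. The remaining 33 alternative values for these results moved by less than the spread between spots or, for counts, by less than 1.5 times.

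No paired analysis was possible because each MDSC type had 1 array and the labels give no replicate numbers. Leaving out an array would remove its MDSC type. Signal over background limits what can be said of Snai3, Cdh1 and the other absent genes, for which only an upper level is known, and Snai1 and Snai2 rest on 1 spot each.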

Other observations

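Values of 2 further groups of genes that work with the Snail family are given here as a description, since the groups were chosen after their values were seen. Of 12 genes of the cytoskeleton and of cell polarity on the array, which EMT reshapes, 10 were present on at least 1 array. In Mst KO MDSCs all 10 were within 2-fold of WT, in mdx MDSCs 1 was lower and in Oct4 transgenic MDSCs 1 was higher, with median log2 ratios of -0.02, -0.01 and 0.05. Of all genes, 16.7%, 21.7% and 21.5% were 2-fold or more apart from WT in these comparisons, and nothing particular to these genes is read from their counts. The gene lower in mdx MDSCs was Rhob, a small GTPase, which was present in WT MDSCs at 1.001 and called absent in mdx MDSCs. With the lowest present value in place of the absent one, Rhob was 1.11-fold lower there, which is not a firm limit. The gene higher in Oct4 transgenic MDSCs was the polarity gene Pard6g, at a log2 ratio of 1.03, which ranged from 0.41 to 1.06 under the alternatives. Rhoa, the main GTPase of stress fibers, was 26.8 in WT, 27.7 in Mst KO, 21.1 in mdx and 22.1 in Oct4 transgenic MDSCs, and Rac1 was 1.35, 1.32, 1.61 and 1.35.

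Other corepressors and kinases gave 7 genes on the array, of which 6 were present and all 6 were within 2-fold of WT in each comparison, as deposited, where 16.7%, 21.7% and 21.5% of all genes were not. Ctbp1, a corepressor that Snail proteins bind, was 1.76 in WT, 2.61 in Mst KO, 2.94 in mdx and 1.97 in Oct4 transgenic MDSCs. Ctbp2, its paralog, was 1.40, 1.40, 1.76 and 1.05, and the kinase gene Csnk1a1 was 9.97, 6.24, 10.1 and 11.2. Median log2 ratios of these 6 genes were -0.16, 0.17 and 0.16, while Hdac1 differed from WT by -2.88 in Oct4 transgenic MDSCs.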
